A study of Homo sapiens with 16 samples.

Results

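The genes described here are 10 genes of the regulated secretory pathway, 5 granins and related granule proteins (CHGA, CHGB, SCG2, SCG3 and VGF), 4 neuropeptide precursors (CRH, VIP, GAL and NPY) and 1 prohormone convertase (PCSK1). They were taken by gene symbol from the table of estimated counts and are 10 of its 63187 genes. All 10 passed the low-count filter that left 19530 genes for testing. The set was drawn up with group and batch differences of these libraries already known, and CRH was chosen on its higher CPM in the transfected groups than in WT, so its fold changes and calls against WT are printed only to describe that choice and support no result.

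Neuroendocrine cells store peptides in dense-core granules, which form at the Golgi around aggregating granins and release their content when calcium enters the cell. Peptides are made as larger precursors that prohormone convertases cut inside the granule, and many are then trimmed and amidated. Neuroblastoma arises from the sympathoadrenal lineage, whose mature cells secrete catecholamines and neuropeptides from such granules, and chromogranin A and neuropeptide Y are long-standing markers of these tumours.

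The cells were SK-N-BE(2) by their labels, a human neuroblastoma line with amplified MYCN, and the deposited columns name the line BE2c. 1 of the 4 groups carries the label wild type (WT), and the other 3 are cells that received full-length HIF-2α (FL) or the forms ΔN-CTAD (NCTAD) and Δc-IDR (cIDR), whose Δ stands only in the design text and is taken to mean that the region is missing. HIF-2α, encoded by EPAS1, is a transcription factor that oxygen-dependent degradation normally keeps low at the 21% oxygen used for all groups, which were also all grown in 10% serum. Each group had 4 libraries, numbered 1 to 4, and the labels give the number also as a batch shared by the 4 groups. The labels used here do not give the vector, the time after transfection or whether WT cells received an empty vector, so transfection as such and HIF-2α cannot be told apart in any comparison with WT. They also do not say whether libraries came from separate cultures, so p-values measure the spread between these libraries.

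Totals ran from 38.6 to 56.1 M (mega) counts. EPAS1, which checks the labels, was at 13.0 to 28.1 counts per 1 M counts (CPM) in the WT libraries and at 1320 to 5852 CPM in the 12 transfected ones. The FL mean was 2609 ± 906 CPM, the NCTAD mean 2851 ± 1330 CPM and the cIDR mean 4484 ± 1740 CPM (SD, n = 4 each). Of 10 adrenergic neuroblastoma markers all 10 averaged at least 1 CPM, TH being lowest at 3.77 CPM, and their sum ran from 5921 to 7403 CPM. Mesenchymal markers reached that level for 4 of 8, with a sum of 92.9 to 204.6 CPM of which PDGFRB (mean 90.2 CPM), LUM (24.7 CPM) and DCN (11.7 CPM) made up most, with COL1A2 and PRRX1 near 0. For Schwann cell markers the count was 2 of 5, with a sum of 3.87 to 7.38 CPM, and for leukocyte markers 0 of 4.

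Promoter sequences are shown for 4 genes, which did not move together in these libraries. The proximal promoters of VGF, CHGA and PCSK1 hold the full letters TGACGTCA of a cyclic AMP response element, the sequence bound by CREB-family factors. That of VIP holds only the shorter TGACGT. The RefSeq promoter table (GRCh38.p14) matched 6 of the 10 genes in 7 windows, and the 250 bases before each start are printed 5′ to 3′ on the strand of the gene. Capitals mark TGACGTCA, which reads the same on both strands, and the shorter TGACGT it contains. VGF lies at chr7:101165570-101165819 on the minus strand, CHGA at chr14:92922900-92923149 on the plus strand, PCSK1 at chr5:96433249-96433498 on the minus strand and VIP at chr6:152750547-152750796 on the plus strand.
VGF: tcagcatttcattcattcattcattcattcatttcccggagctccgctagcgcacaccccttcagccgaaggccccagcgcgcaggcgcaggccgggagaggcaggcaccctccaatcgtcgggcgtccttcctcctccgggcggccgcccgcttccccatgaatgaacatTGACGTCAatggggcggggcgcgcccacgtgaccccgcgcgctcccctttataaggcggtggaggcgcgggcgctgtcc
CHGA: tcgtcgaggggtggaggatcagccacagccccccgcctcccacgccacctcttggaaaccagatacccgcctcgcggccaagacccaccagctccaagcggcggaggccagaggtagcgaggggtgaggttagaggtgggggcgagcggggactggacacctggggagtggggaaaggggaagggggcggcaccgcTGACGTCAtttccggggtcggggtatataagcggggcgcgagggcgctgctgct
PCSK1: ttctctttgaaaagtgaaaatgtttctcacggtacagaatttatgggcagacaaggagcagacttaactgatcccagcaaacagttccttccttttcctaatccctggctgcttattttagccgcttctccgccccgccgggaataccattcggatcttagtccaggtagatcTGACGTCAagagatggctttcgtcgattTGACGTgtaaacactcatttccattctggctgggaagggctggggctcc
VIP: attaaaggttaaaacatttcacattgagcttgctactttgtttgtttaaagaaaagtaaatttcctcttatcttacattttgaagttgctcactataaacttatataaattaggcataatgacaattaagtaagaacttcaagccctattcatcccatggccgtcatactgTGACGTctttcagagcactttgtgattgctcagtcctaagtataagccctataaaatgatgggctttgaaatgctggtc

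TGACGTCA was found upstream of CHGA, PCSK1 and VGF, 3 of the 6 matched genes, and in 1.65% of 35116 upstream windows of the same length. It begins 79 bases before the start of VGF, 77 before that of PCSK1 and 54 before that of CHGA. VIP carries TGACGTCT 79 bases before its start, so TGACGT on either strand was present for 4 of the 6 genes and in 7.1% of all windows. These are matches of letters, and no binding was measured.

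The core letters of the hypoxia response element, searched as ACGTG on both strands, were present for PCSK1 and VGF and in 18.5% of all windows. In PCSK1 they overlap the downstream TGACGT. The alternative core GCGTG, on both strands, was present for CHGA, NPY, PCSK1 and SCG3 and in 32.2% of all windows. For PCSK1 it lies in the window of the second start, which is not printed.

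Levels of different genes were compared per transcript length, in the deposited TPM (transcripts per 1 M). CHGA, which encodes chromogranin A, was the highest of the 10 at 2194 ± 335 TPM (SD, n = 16 libraries). SCG2 (secretogranin II) stood at 550.5 ± 54.2 TPM and CHGB (chromogranin B) at 549.6 ± 92.2 TPM, and SCG2 was the higher of these neighbours in 10 of 16 libraries. VGF followed at 306.6 ± 50.7 TPM. The gap from CHGA to SCG2 and that from CHGB to VGF left no overlap among the 16 libraries.

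The peptide precursors formed a middle band whose order could not be fixed. VIP (vasoactive intestinal peptide) was at 172.6 ± 44.7 TPM, GAL (galanin) at 151.1 ± 29.0 TPM and SCG3 (secretogranin III, which binds chromogranin A) at 138.3 ± 12.4 TPM. NPY was at 110.5 ± 16.3 TPM and CRH (corticotropin-releasing hormone) at 107 ± 55.5 TPM, the widest relative spread in the band. Each neighbour in the run from VIP to CRH overlapped the next, and NPY was above CRH in 8 of 16 libraries.

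PCSK1, which makes the first cuts in many precursors, was far below its substrates at 1.499 ± 0.672 TPM. The convertase PCSK2 was at 0.013 TPM and was removed by the low-count filter. FURIN, a convertase of the constitutive pathway, averaged 18.6 TPM and PCSK6 averaged 5.52 TPM. Of the other processing genes, PCSK1N (an inhibitor of PCSK1) averaged 113.6 TPM, PAM (peptide amidation) 55.4 TPM, SCG5 (a chaperone of PCSK2) 42.7 TPM, CPD 11.3 TPM, QPCT 8.68 TPM and the granule carboxypeptidase CPE 2.29 TPM. Every granin and precursor of the set averaged 107 TPM or more, and both granule convertases 1.499 TPM or less.

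Of the 9 genes other than CRH, none was called between any of the groups without the block. In the edgeR quasi-likelihood test with group as the only term, 0 of the 10 genes had a Benjamini-Hochberg adjusted p under 0.05 in any of the 6 comparisons. The share of all tested genes called was 0.0102% for FL against WT, 0.0256% for NCTAD against WT, 0.0102% for cIDR against WT and 0.0% for each of the 3 comparisons between constructs. At an unadjusted p under 0.05 the members counted 0, 1 and 1 against WT (1.14%, 1.42% and 1.37% of all tested genes), the member being CRH both times, from whose count nothing is read, and 0 in each comparison between constructs (0.886%, 0.906% and 0.609%), and DESeq2 also called 0 in all 6.

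With the batch as a replicate block, edgeR called 0 members in FL against WT, 2 in NCTAD against WT (CRH higher, VIP lower) and 1 in cIDR against WT (CRH higher). The calls of CRH rest on the values it was chosen on. VIP in NCTAD was the only call of another member in this fit. The set was drawn up with group differences known, so the call of VIP is no independent test. The background was 0.102%, 0.456% and 0.486% of all tested genes in either direction. Split by direction, FL, NCTAD and cIDR had 0.0717%, 0.42% and 0.456% of genes higher and 0.0307%, 0.0358% and 0.0307% lower. Between constructs the block fit called 0 of 10 in each comparison, beside 0.0%, 0.0307% and 0.00512% of all genes for NCTAD against FL, cIDR against FL and cIDR against NCTAD. At an unadjusted p under 0.05 it counted 2, 3 and 0 members there, beside 3.69%, 3.68% and 2.15% of all tested genes. Against WT it counted 2, 5 and 3 for FL, NCTAD and cIDR, CRH included, beside 5.11%, 5.96% and 5.45%. DESeq2 with the block called CRH in NCTAD against FL and in cIDR against FL, 1 of 10 in each, from which nothing is read. The share of all tested genes called there was 0.0614% and 0.236%. The median log2 fold change of the 10 genes in the block fit was 0.10, 0.05 and 0.06 for FL, NCTAD and cIDR against WT, and that of all tested genes was 0.01, 0.02 and 0.01. The bulk libraries cannot tell a change in the RNA of each cell from a change in the number of cells that make it.

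CRH (ENSG00000147571.5), the hypothalamic releasing hormone of the stress axis that is also made by some neuroendocrine tumours, had a wide range relative to its level. In batches 1 to 4 the WT libraries had 38.4, 73.9, 33.2 and 27.6 CPM. The FL libraries had 55.1, 143.3, 45.2 and 50.5 CPM. NCTAD gave 142.2, 176.0, 95.0 and 84.2 CPM, and cIDR gave 130.4, 134.7, 93.2 and 85.7 CPM. Every NCTAD and cIDR library was above every WT library, whereas FL overlapped WT through batch 2, the highest batch in every group.

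CRH averaged 43.3 ± 20.9 CPM over the WT libraries, 73.5 ± 46.7 over FL, 124.3 ± 42.6 over NCTAD and 111.0 ± 25.1 over cIDR (SD, n = 4 each), from 1259 counts in the lowest library to 8716 in the highest. The log2 fold change against WT was 0.76 ± 0.38 (SE) for FL, 1.52 ± 0.38 for NCTAD and 1.36 ± 0.38 for cIDR, and with the replicate block it was 0.72 ± 0.16, 1.57 ± 0.16 and 1.45 ± 0.16. CRH was higher than WT of the same batch in 4 of 4 batches for each construct. None of the other 9 genes had NCTAD or cIDR libraries free of overlap with WT, as 1.43% and 1.47% of all tested genes had. No member was free of overlap between FL and WT, where 0.819% of all genes were. The FL value moved with single libraries of batch 2. Without the block, the log2 fold change of CRH in FL against WT was 0.22 without FL replicate 2 and 1.15 without WT replicate 2, and it was 0.58 with all of batch 2 left out.

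**Figure D1:**
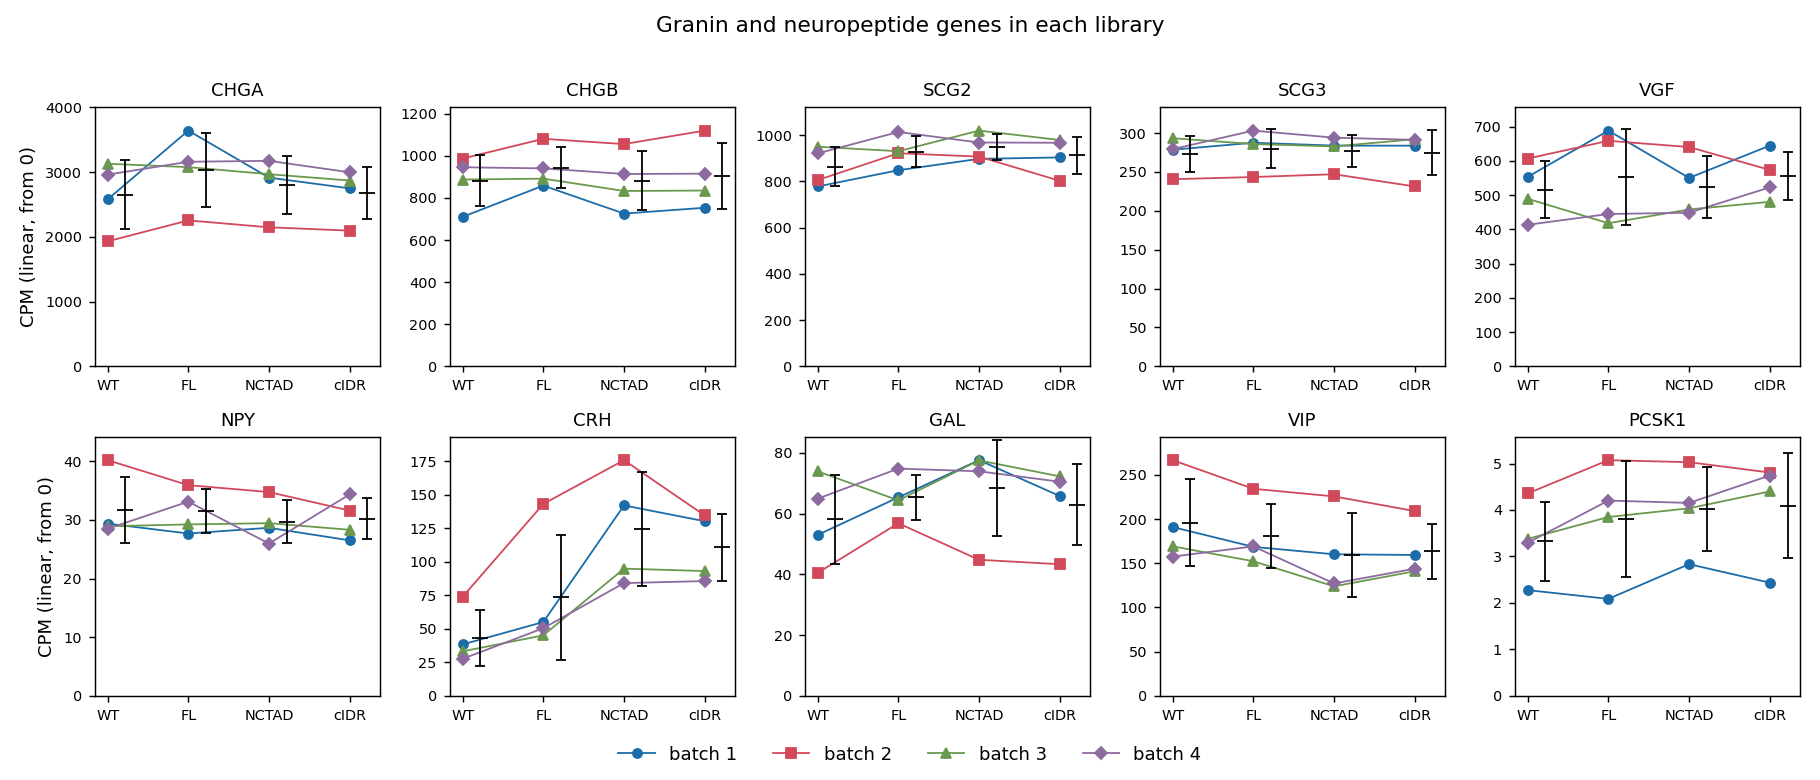
CPM of the 10 genes in each library on linear axes from 0, with lines joining the 4 groups of a batch and bars giving mean ± SD of each group (n = 4). CRH climbs from WT to NCTAD and cIDR in every batch, from 27.6 CPM in the lowest WT library to 176.0 CPM in the highest NCTAD library, while the other 9 panels are separated mainly by batch.

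Between constructs, CRH was 0.76 ± 0.38 higher (log2, SE) in NCTAD than in FL and 0.59 ± 0.38 higher in cIDR than in FL. With the block these were 0.84 ± 0.16 and 0.73 ± 0.16, with edgeR adjusted p of 0.402 and 0.305. NCTAD exceeded FL in 4 of 4 batches, by 1.37, 0.30, 1.07 and 0.74 on the log2 scale. cIDR exceeded FL in 3 of 4, by 1.24, 1.04 and 0.76 in batches 1, 3 and 4 and by −0.09 in batch 2.

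In batches 1, 3 and 4 the FL libraries (45.2 to 55.1 CPM) lay above all WT libraries (27.6 to 38.4 CPM) and below all NCTAD (84.2 to 142.2 CPM) and cIDR libraries (85.7 to 130.4 CPM). Whether CRH passed against FL depended on the libraries, the block and the tool. Without batch 2, edgeR with the block gave 1.07 for NCTAD against FL (adjusted p 0.00691) and 1.03 for cIDR against FL (adjusted p 0.00633). Without batch 2 and without the block the values were 1.10 and 1.05 and did not pass (adjusted p 0.311 and 0.215). With all batches, DESeq2 with the block gave 0.85 (adjusted p 0.0153) and 0.74 (adjusted p 0.0477). These alternatives were chosen after the values were seen, and batch 2 was the batch where cIDR did not exceed FL. CRH was chosen on these NCTAD and cIDR libraries, so its calls against FL support no result. NCTAD and cIDR differed by −0.12 ± 0.15 (log2, cIDR minus NCTAD, SE) with the block, and their libraries overlapped.

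EPAS1 and the hypoxia list are given beside CRH. In batch 2, where CRH was at its highest in each group, EPAS1 was at 2001 CPM for FL, 1320 CPM for NCTAD and 2189 CPM for cIDR, the lowest of the 4 libraries in the last 2 groups. EPAS1 was higher in cIDR than in NCTAD in 4 of 4 batches, where CRH was higher in cIDR in 1 of 4. Without the block edgeR called 0 of 10 hypoxia genes in each construct against WT, with 2 at an unadjusted p under 0.05 in each (1.14%, 1.42% and 1.37% of all tested genes). DESeq2 without the block called 0, 1 and 1 in FL, NCTAD and cIDR, beside 0.0563%, 0.087% and 0.041% of all tested genes. With the block edgeR called 0, 5 and 5 higher, beside 0.0717%, 0.42% and 0.456% of all tested genes, among them VEGFA at 1.05 and 0.89 and NDRG1 at 2.03 and 2.49 (log2, NCTAD then cIDR). DESeq2 with the block called 3, 5 and 6 higher, where 0.297%, 0.86% and 0.799% of all tested genes were called. The part of these differences in the CRH values was not tested.

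VIP (ENSG00000146469.13), a vasodilator peptide of autonomic neurons, went the other way. WT had 191.0, 266.7, 169.2 and 157.6 CPM in batches 1 to 4, and FL had 168.6, 234.3, 152.3 and 169.1 CPM. NCTAD had 160.2, 225.7, 123.9 and 127.2 CPM, and cIDR had 159.4, 209.1, 141.0 and 143.9 CPM. Batch 2 was high throughout and the groups overlapped, but within a batch NCTAD and cIDR were below both WT and FL in 4 of 4 batches.

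In the block fit VIP was lower in NCTAD than in WT, with a log2 fold change of −0.31 ± 0.06 (SE) and an edgeR adjusted p of 0.0342. In cIDR it was −0.25 ± 0.06 with an adjusted p of 0.129, where DESeq2 with the block called it lower (−0.26, adjusted p 0.0049), and in FL −0.10 ± 0.06 with an adjusted p of 0.92. Without the block the NCTAD value was −0.30 ± 0.21 and did not pass. The NCTAD call was narrow: it was lost with each whole batch left out (adjusted p 0.0763 to 0.515), and it held in 7 of 16 block fits that left out 1 library. The difference between the NCTAD and cIDR effects was 0.06 ± 0.06 (log2, cIDR minus NCTAD, SE; edgeR adjusted p 0.9998).

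GAL, which codes for a peptide that modulates transmitter release, had 53.0, 40.5, 73.9 and 64.9 CPM in WT and 77.6, 44.8, 77.5 and 73.9 CPM in NCTAD. It was higher in NCTAD than in WT in 4 of 4 batches, but the groups overlapped and the block fit gave 0.24 ± 0.10 (log2, SE; edgeR adjusted p 0.707). FL ran from 56.8 to 74.8 CPM and cIDR from 43.3 to 72.2 CPM. NPY, a vasoconstrictor peptide that is stored with noradrenaline, ran from 26.0 to 40.2 CPM over all libraries. Its log2 fold changes against WT in the block fit were −0.01, −0.09 and −0.06 for FL, NCTAD and cIDR, with an SE of 0.08 each.

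The granins were nearly level across groups. SCG2 had 778.2, 805.9, 950.3 and 921.1 CPM in WT and 897.7, 907.5, 1020 and 968.5 CPM in NCTAD, higher in 4 of 4 batches with overlapping groups. Its log2 fold change in the block fit was 0.14 ± 0.05 (SE; edgeR adjusted p 0.674). The WT mean of CHGA was 2649 ± 532 CPM, that of FL 3032 ± 576, that of NCTAD 2800 ± 450 and that of cIDR 2677 ± 401 CPM (SD, n = 4 each). FL batch 1, at 3640 CPM, was the highest CHGA library.

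CHGB averaged 882.6, 942.9, 882.3 and 905.9 CPM, SCG3 272.9, 280.0, 276.9 and 274.6 CPM, and VGF 515.7, 552.5, 524.4 and 555.3 CPM, each in the order WT, FL, NCTAD, cIDR. The SD within a group was 98.0 to 157.2 CPM for CHGB, 20.6 to 29.1 for SCG3 and 70.7 to 140.8 for VGF. It was larger than any difference between group means, but it includes the spread between batches. This comparison leaves out the pairing by batch, so it does not show that the groups are level. VGF encodes a neurotrophin-responsive granule protein that is cut into several peptides. In the block fit the log2 fold changes of CHGA, CHGB, SCG3 and VGF against WT were at most 0.20, and none passed the threshold.

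PCSK1 was counted low, from 86 to 273 counts per library. WT had 2.28, 4.36, 3.38 and 3.29 CPM, FL 2.09, 5.07, 3.85 and 4.20, NCTAD 2.83, 5.03, 4.04 and 4.15 and cIDR 2.44, 4.81, 4.40 and 4.74 CPM. NCTAD and cIDR were above WT of the same batch in 4 of 4 batches, and the groups overlapped. The block fit gave 0.28 ± 0.11 and 0.29 ± 0.11 (log2, SE), with edgeR adjusted p of 0.713 and 0.755. On log2(TPM + 1) with limma the NCTAD value was −0.01, and the mean level was 1.31 TPM in WT and 1.34 TPM in NCTAD.

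Counting direction alone, 4 members were higher than WT in 4 of 4 batches in NCTAD (SCG2, CRH, GAL and PCSK1) and 1 was lower (VIP), where 8.88% and 6.48% of all tested genes were. In cIDR 2 were higher (CRH and PCSK1) and 1 was lower (VIP), with a background of 10.5% and 7.12%. In FL 1 was higher (CRH) and no member was lower in 4 of 4, beside 5.38% and 3.94%. CRH was chosen for being higher than WT and adds nothing to these counts, which leaves 3, 1 and 0 other members higher in NCTAD, cIDR and FL. Against FL, NCTAD was higher for CRH and lower for CHGB and VIP (background 6.03% and 5.21%), and cIDR was higher for no member and lower for CHGA and VIP (background 4.87% and 5.03%). Against NCTAD, cIDR was higher for CHGB and lower for CHGA and GAL (background 4.36% and 6.05%).

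A wider list of 70 genes held other peptide precursors, processing enzymes, granule biogenesis and release genes, receptors and transcription factors of these genes, and 47 of them were tested. This list was also chosen with earlier results of these data known, so its counts and calls only describe these libraries. Without the block edgeR called 0 of 47 in all 6 comparisons, with 2, 1 and 3 at an unadjusted p under 0.05 for FL, NCTAD and cIDR against WT, beside 1.14%, 1.42% and 1.37% of all tested genes, and 0, 1 and 0 between constructs, beside 0.886%, 0.906% and 0.609%. DESeq2 called 0 as well. With the block 1, 2 and 3 genes rose against WT in FL, NCTAD and cIDR, beside 0.0717%, 0.42% and 0.456% of all tested genes, no gene fell, and 0 were called between constructs. At an unadjusted p under 0.05 that fit counted 10, 11 and 9 of 47 against WT, beside 5.11%, 5.96% and 5.45% of all tested genes. The median log2 fold change of the 47 genes in that fit was 0.06, 0.06 and 0.07, beside 0.01, 0.02 and 0.01 for all tested genes.

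SLC18A1, the vesicular monoamine transporter that loads catecholamines into granules of chromaffin cells, rose in all 3 constructs in the block fit. WT had 59.3, 108.9, 72.6 and 69.2 CPM and FL had 98.2, 161.0, 91.5 and 97.9 CPM. NCTAD had 105.3, 134.5, 108.0 and 108.7 CPM, and cIDR had 112.7, 174.4, 107.1 and 108.0 CPM. Every transfected library was above WT of the same batch, and the groups overlapped only through the WT library of batch 2. The log2 fold changes with the block were 0.53, 0.59 and 0.70 (SE 0.08 each) for FL, NCTAD and cIDR, with edgeR adjusted p of 0.0117, 0.00189 and 0.000508. The FL call held in 13 of 16 fits that left out 1 library, and was lost (adjusted p up to 0.0911) without WT replicate 1, WT replicate 4 or FL replicate 2, and in 3 of 4 fits that left out a batch. The NCTAD and cIDR calls held in all 16 and in all 4.

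CARTPT, which encodes the peptide CART, was near the floor in WT outside batch 2. WT had 1, 207, 3 and 0 counts in batches 1 to 4, FL had 57, 941, 16 and 17, NCTAD had 222, 754, 65 and 59, and cIDR had 332, 1239, 94 and 78. It was above WT of the same batch in 4 of 4 batches for each construct, and the libraries of batch 2 had 3.85 (WT), 18.4 (FL), 15.2 (NCTAD) and 21.8 CPM (cIDR). With the block edgeR called it higher in NCTAD (adjusted p 0.0147) and cIDR (adjusted p 0.0034) but not in FL (adjusted p 0.296). Fitted folds are left out because they depend on the prior count where WT is near 0. The NCTAD call was lost in 4 of 16 fits without 1 library (WT replicate 1 and NCTAD replicates 1, 3 and 4) and in 3 of 4 without a batch, and the cIDR call was lost without batch 3. With the block and no batch 2, calls were gained in FL against WT (adjusted p 0.0209) and in cIDR against FL (adjusted p 0.0295).

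NMB, the precursor of neuromedin B, rose in cIDR. The 4 WT libraries averaged 7.09 ± 1.34 CPM, those of FL 9.28 ± 1.83, those of NCTAD 8.61 ± 2.18 and those of cIDR 9.95 ± 2.13 CPM (SD). The cIDR value was 0.48 ± 0.09 (log2, SE; edgeR adjusted p 0.0364 with the block), a call that held in 4 of 16 fits without 1 library and in 1 of 4 without a batch. The FL value was 0.39 ± 0.09 (adjusted p 0.296) and the NCTAD value 0.27 ± 0.09 (adjusted p 0.59). The difference between cIDR and NCTAD was 0.21 ± 0.09 and did not pass either (adjusted p 0.9998).

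**Figure D2:**
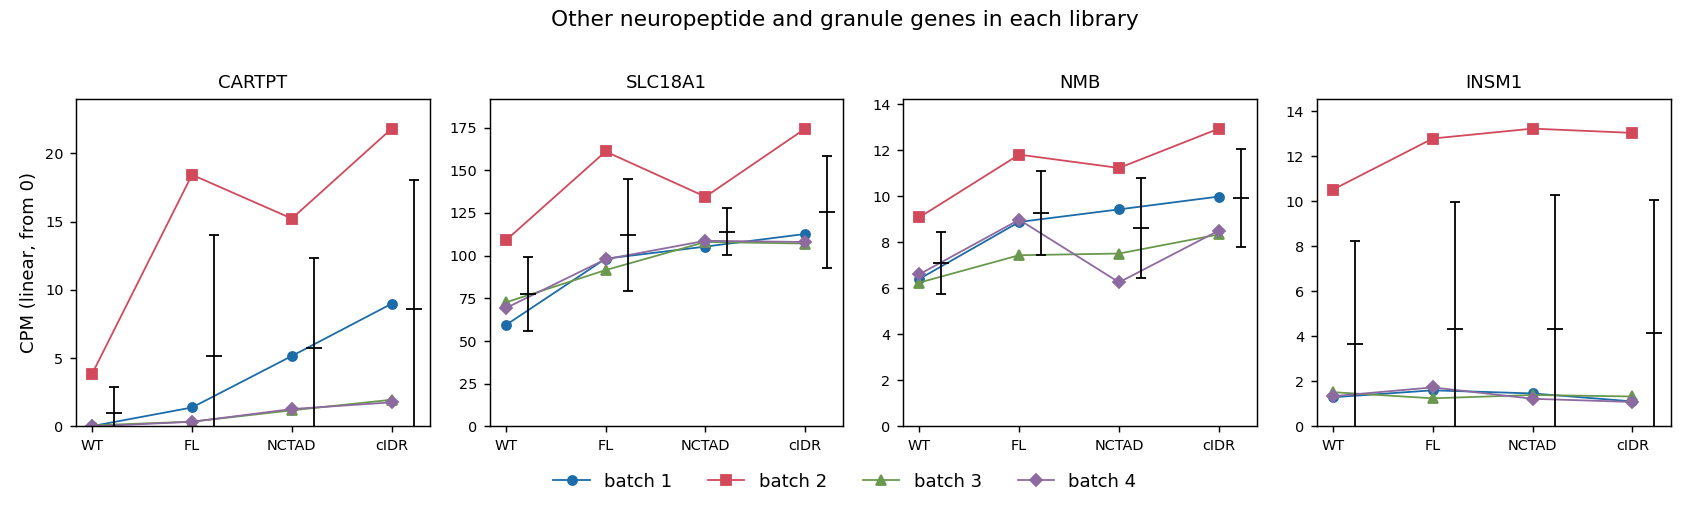
CPM of CARTPT, SLC18A1, NMB and INSM1 in each library on linear axes from 0, with lines joining the groups of a batch and bars giving mean ± SD of each group (n = 4). SLC18A1 is higher in the constructs than in WT of each batch, and CARTPT and INSM1 are highest in batch 2.

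By role, 2 of 7 tested peptide precursors, 0 of 9 processing genes, 1 of 19 granule genes, 0 of 4 receptors and 0 of 8 transcription factors passed in cIDR against WT in edgeR with the block, beside 0.486% of all tested genes. In NCTAD 1 of 7 precursors and 1 of 19 granule genes passed, beside 0.456% of all tested genes. In FL 1 of 19 granule genes passed, beside 0.102%. No gene of the other roles passed in NCTAD or FL. DESeq2 with the block gave the same counts except for processing genes. Of these it called 2 of 9 higher in NCTAD (PAM at 0.30 and PCSK6 at 0.44, log2, adjusted p 0.0161 and 0.022) and 2 of 9 in cIDR (CPE at 0.75 and PCSK6 at 0.42, adjusted p 0.00799 and 0.047), beside 0.86% and 0.799% of all tested genes. The other 13 of 20 precursors, among them PENK, POMC and SST, were too low to test. The receptors of CRH, CRHR1 and CRHR2, and its binding protein CRHBP were also below the filter, as were NPY1R, NPY5R, GALR2, GALR3 and VIPR1. NPY2R, GALR1, VIPR2 and ADCYAP1R1 were the receptors that could be tested.

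Batch 2, which held the highest CRH library of each group, was also compared with the other batches. The fit with batch and group as terms compares 4 libraries of 1 batch with 12 of 3 others, so it describes these libraries and no condition. It called 10 of 10 members, 6 higher and 4 lower in batch 2. Of all tested genes 53.9% were called, 27.7% higher and 26.1% lower. The set was drawn up with batch differences known, and the value of CRH restates that batch 2 held its highest libraries. Nothing is read from this count. With no overlap between batch 2 and the other 12 libraries there were 4 members (CHGA, CHGB, SCG3 and VIP), and 29.0% of all tested genes.

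The peptide genes CRH, VIP and NPY and the convertase PCSK1 were higher in batch 2, by 0.98 ± 0.12, 0.60 ± 0.05, 0.29 ± 0.07 and 0.51 ± 0.09 on the log2 scale (SE). GAL was lower by −0.58 ± 0.08. VIP averaged 233.9 ± 24.2 CPM in batch 2 and 155.3 ± 19.1 CPM in the other 12 libraries (SD). GAL averaged 46.3 ± 7.19 and 69.5 ± 7.11 CPM.

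The 2 chromogranins parted: CHGA was −0.52 ± 0.06 in batch 2 and CHGB 0.32 ± 0.04 (log2, SE). CHGA averaged 2106 ± 135 CPM in batch 2 and 3017 ± 262 CPM elsewhere, and CHGB 1061 ± 55.8 and 850.9 ± 81.9 CPM. No library of batch 2 overlapped the others for either gene. SCG3 was −0.26 ± 0.03, SCG2 −0.11 ± 0.04 and VGF 0.30 ± 0.07.

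CRH, NPY and GAL also overlapped between batch 2 and the other libraries. CRH averaged 132.0 CPM in batch 2 and 91.5, 66.7 and 62.0 CPM in batches 1, 3 and 4. NPY reached 34.3 CPM in batch 4, within its batch 2 range of 31.6 to 40.2 CPM. For VGF, SCG2 and PCSK1 batch 1 also differed from batches 3 and 4. VGF averaged 609.2 ± 68.7 CPM in batch 1 and 619.9 ± 37.6 in batch 2, but 461.5 ± 31.9 and 457.4 ± 46.3 in batches 3 and 4. SCG2 averaged 857.1 and 859.5 CPM in batches 1 and 2 and 970.2 and 967.8 CPM in batches 3 and 4. PCSK1 was lowest in batch 1, at 2.41 ± 0.318 CPM, and highest in batch 2, at 4.82 ± 0.328 CPM.

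In the wider list 36 of 47 genes were called between batch 2 and the others, 19 higher and 17 lower, with a median of −0.04, beside 53.9% of all tested genes called, 27.7% higher and 26.1% lower. Among called genes with a mean log2 CPM of at least 1, a limit that leaves out CARTPT, the 3 largest rises were INSM1, a transcription factor of neuroendocrine differentiation, at 3.19 ± 0.10 (log2, SE), PCSK6 at 1.16 ± 0.08 and HID1, a granule biogenesis gene, at 1.10 ± 0.09. INSM1 averaged 12.4 ± 1.26 CPM in batch 2, where it ran from 10.5 to 13.2 CPM, and 1.36 ± 0.193 CPM in the other 12 libraries. Its highest value in those 12 libraries, 1.73 CPM, was below the limit, so it entered this order only through batch 2. Its place in the order is therefore no result. The 3 largest falls under the same limit were ADCYAP1, the precursor of the VIP-related peptide PACAP, at −1.60 ± 0.14, and the receptors NPY2R at −0.998 ± 0.08 and GALR1 at −0.98 ± 0.15. Batch 1 was also below batches 3 and 4 for these genes. In batches 1, 3 and 4 ADCYAP1 averaged 3.45, 6.64 and 6.66 CPM. NPY2R averaged 25.5, 38.9 and 37.1 CPM there, and GALR1 2.157, 3.472 and 3.815 CPM. ADCYAP1 and VIP differed in opposite directions in batch 2.

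Hypoxia-responsive genes also differed by batch, although the labels give 21% oxygen for every library. Of the 10 genes of that list 9 were called higher in batch 2, beside 27.7% of all tested genes, with a median of 1.38 (log2). NDRG1 was at 178.4 ± 55.1 CPM in batch 2 and 24.5 ± 15.6 CPM in the others, and PDK1 at 27.4 ± 8.07 and 3.86 ± 0.788 CPM. SLC2A1 was at 0.05 ± 0.10 (log2, SE). The part of this difference in the values of the 10 genes in batch 2 was not tested, and what set batch 2 apart is not given in the labels.

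The genes whose pattern was most like that of CRH, by Pearson r of log2 CPM with each batch centred on its mean, were AQP10 (r = 0.981), STC1 (r = 0.954) and DBH (r = 0.953), over 16 libraries and 12373 genes searched. The points share libraries, depth and the same construct groups. AQP10, a water and glycerol channel, averaged 6.75 ± 1.55, 8.83 ± 1.83, 13.6 ± 4.57 and 13.1 ± 2.36 CPM in WT, FL, NCTAD and cIDR. STC1 (stanniocalcin 1) averaged 50.9 ± 31.0, 66.9 ± 50.2, 84.7 ± 40.0 and 94.2 ± 53.5 CPM. DBH, also among the adrenergic markers, makes noradrenaline from dopamine in the granule and averaged 356.9 ± 93.4, 463.8 ± 159.1, 542.9 ± 124.4 and 509.1 ± 133.0 CPM (SD, n = 4 each).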

How the data were processed

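RNA was measured in 16 poly(A)-selected, stranded libraries of the established line SK-N-BE(2), 4 per group, with an input of 250 ng and 13 cycles of PCR, per the labels. The authors deposited estimated counts per gene, not scaled to depth or length, and TPM values, per the names of the tables. fastp, STAR, Salmon and featureCounts and the build GRCh38 are named in the submitters' processing notes, and versions and the annotation release are not given in the sources used here. Deposited columns name the groups differently (CTRL for WT, WT for FL, NTAD for NCTAD) and the line BE2c; groups here follow the sample titles. Counts of transfected and endogenous EPAS1 are pooled.

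Estimated counts (15.5% not whole) were rounded. Genes were filtered with filterByExpr by group (19530 kept), scaled by TMM and tested in edgeR 4.0.16 (R 4.3.3) by quasi-likelihood, in 1 model over 16 libraries with group as the only term and a Benjamini-Hochberg adjusted p under 0.05. SE is the log2 fold change over the root of F. CPM divide by library sizes scaled by TMM, and a prior count of 2 entered log2 CPM. The labels give the replicate number as a shared batch. Across genes, deviations from group means had an average r of 0.308 in 24 pairs of the same number (0.0674 to 0.712) and −0.0945 in the other pairs, and the block fit lowered the biological coefficient of variation from 0.245 to 0.108. No library was a copy of another (smallest chi-square per degree of freedom 7.24). Batch 2 was set against batches 1, 3 and 4 with group as a term. Alternatives were median-of-ratios size factors, no filter, DESeq2 1.42.0, limma 3.58.1 on log2(TPM + 1) and log2(TPM + 0.1), the 8 libraries of a comparison alone, and each library left out. Whole batches left out, DESeq2 with the block and the block fit without each library were added after seeing the data. The scripts were tested on simulated data.

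Genes named are the 10 members, list genes called in a group comparison, the 3 largest rises and 3 largest falls of the list in batch 2 (mean log2 CPM of 1 or more), and the 3 genes most like CRH. EPAS1 and hypoxia genes are named where they moved with a result, and processing and marker genes as levels. Members, lists and rules were chosen with earlier results of these data known. Totals of 38.6 to 56.1 M counts set the precision.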

Additional observations from a re-analysis of the deposited data

Results flagged for a closer look

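In 4 of 40 sets of 4 libraries (10 genes in 4 groups) 1 library lay far from the other 3, by the gap to its nearest neighbour as a share of the range (above Dixon's critical value for 4). Chance alone flags about 1 in 20 sets. All 4 libraries were of batch 2. CRH in FL was 143.3 CPM in batch 2 against 55.1 CPM in the nearest library (gap 0.899 of the range). NPY in WT was 40.2 CPM against 29.4 CPM (0.926). GAL in NCTAD was low, at 44.8 CPM against 73.9 CPM (0.888), and SCG3 in cIDR was low, at 231.3 CPM against 283.7 CPM (0.863).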

How the results depend on the processing

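Of 584 counts of called genes recomputed, 467 were within 1.5 times the reported count and 117 were not. Of 2920 recomputed log2 fold changes of the 10 genes, 2838 moved by less than the spread between replicates and 82 moved more. None was called and changed sign. In the fit with group as the only term no member was called between groups. For group comparisons against that fit the absence of such changes was therefore fixed in advance and shows nothing of the stability of signs. Members called against WT were 2 in NCTAD and 1 in cIDR with the replicate block, 1 and 1 without batch 2 and no block, 1 and 1 with the block and any of batches 1 to 4 left out, and 2 and 2 with DESeq2 and the block. In FL against WT they were 0 in each of these. CRH, chosen on this difference, is 1 of the members in each count above 0 against WT, so these counts show nothing of its stability. Members called against FL were 1 in NCTAD and 1 in cIDR with the block but no batch 2, and also 1 and 1 with DESeq2 and the block. The member was CRH each time, so nothing is read from these counts either. List genes called against WT in FL, NCTAD and cIDR were 1, 2 and 3 with the block, beside 0.102%, 0.456% and 0.486% of all tested genes. They were 1, 1 and 2 without batch 2 and no block. With DESeq2 and the block they were 1, 4 and 5, beside 0.297%, 0.86% and 0.799%. With the block and batch 1, 2, 3 or 4 left out they were 0, 2, 0 and 0 in FL, 1, 2, 1 and 1 in NCTAD and 2, 2, 1 and 3 in cIDR, and 1 in cIDR against FL without batch 2. Leaving out each library, with and without the block, gave 0 to 2 members in NCTAD and 0 to 2 in cIDR against WT, 0 to 1 in NCTAD and 0 to 1 in cIDR against FL, and list genes of 0 to 1, 0 to 3 and 0 to 4 in FL, NCTAD and cIDR against WT. For batch 2 it gave 9 to 10 members and 36 to 39 list genes, and limma on TPM gave 8 members. Counts given here without a share of all tested genes show only how calls moved between fits and are not read against a background. The cause of these shifts was not tested. PCSK1 in NCTAD against WT went from 0.27 on counts to −0.01 and −0.05 on log2(TPM + 1) and log2(TPM + 0.1), without a call. PCSK1 and CARTPT are limited by depth. Each group has 4 libraries and batch 2 is 1 batch, so its difference has no replicate. The labels used here name no control for transfection.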

Other observations

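PCSK1 read differently in the deposited TPM and in the CPM computed here from the deposited counts. In the FL libraries it was 0.515, 2.04, 1.41 and 2.87 TPM in batches 1 to 4, where CPM was 2.09, 5.07, 3.85 and 4.20. In the WT libraries it was 1.07, 1.26, 1.79 and 1.12 TPM, where CPM was 2.28, 4.36, 3.38 and 3.29. The highest FL library was batch 4 in TPM and batch 2 in CPM, and the highest WT library was batch 3 in TPM and batch 2 in CPM. TPM uses the transcript lengths that the quantifier assigned in each library, which were not analysed here.

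Among the genes most like each of the other 9 members, by the same batch-centred r over 16 libraries, the highest r per member ran from 0.84 (PFN1P1 for NPY) to 0.924 (PDIA4 for GAL). SPARC was the second for SCG2 (r = 0.878), DCN the third for VIP (r = 0.89) and HEY1 the first for PCSK1 (r = 0.922). These are the highest of 12373 genes for each member.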
